A study of Mus musculus with 4 samples.

Results

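The voltage-gated calcium and sodium channel genes were followed in sorted cells of the newborn mouse cochlea, with and without a short exposure to gentamicin. Members were taken by gene symbol, from the rows of the score tables named as a calcium channel Cacna1, Cacna2d, Cacnb or Cacng gene or as a numbered Scn sodium channel gene ending in a or b. These gene families were chosen with earlier results of these data known. Of the 23420 genes listed, 37 are described: 10 calcium channel pore genes, 4 alpha2delta genes, 4 beta genes, 8 gamma genes, 8 sodium channel pore genes and 3 sodium channel beta genes. The sodium channel pore gene listed under the older symbol Scn2a1 does not match the rule and is given with the partners of the channels.

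Cochleae came from postnatal day 1 (P1) Atoh1-GFP transgenic mice on a CD-1 background, in which an Atoh1 transgene marks hair cells with green fluorescent protein, and all 4 groups carry this transgene. The explants were kept overnight in organ culture, after which some received 0.5 mM gentamicin, an aminoglycoside antibiotic that kills hair cells, for 3 h, while control explants received none. Digested cochleae were sorted by fluorescence into GFP-positive hair cells and GFP-negative non-hair cells, which gave control hair cells, gentamicin-treated hair cells, control non-hair cells and gentamicin-treated non-hair cells with 3 replicates each. Hair cells here pool inner and outer hair cells. GFP is also weakly expressed in inner phalangeal cells, and cells with little GFP were gated out. The non-hair cells are a mixture of supporting cells, the epithelial ridges and the tissue around them. How many animals went into a replicate is not given in the sources used here.

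Voltage-gated calcium channels are built around 1 large pore-forming alpha1 subunit (Cacna1 genes), which opens on depolarization and lets calcium in. The alpha2delta (Cacna2d) and beta (Cacnb) subunits bring the pore to the membrane and set how it opens. Of the gamma (Cacng) genes, some encode partners of the calcium channel of muscle and others encode TARPs, which escort AMPA-type glutamate receptors. Voltage-gated sodium channels have a pore subunit that produces the upstroke of action potentials and small beta subunits that anchor the pore and tune its gating. In hair cells an L-type calcium channel with the Cacna1d pore drives transmitter release at the ribbon synapse, and immature hair cells fire calcium spikes that a sodium current helps along.

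Read depth was even, at 22400686–28152270 recovered reads on genes per replicate. A score is the number of reads on a gene, scaled per replicate, plus an offset of 1, so a score of 1 means no reads. Scores are used to compare groups for 1 gene, and levels are compared between genes as the score minus 1 per kilobase of merged exon. The sort was visible in the scores of 10 hair cell markers, which summed to 11556–11995 in control hair cells and to 221–254 in control non-hair cells. Summed mesenchyme, endothelial, mural, glia and macrophage markers were lower in control hair cells, for glia 403–466 against 708–948. Supporting cell markers were not lower, at 1912–2291 against 1452–2101, and neuron markers overlapped, at 1140–1363 against 650–1696. Control hair cell replicate 2 stood apart from replicates 1 and 3 in the markers of other cells. Its mesenchyme markers summed to 533 beside 249 and 291, and its endothelial markers to 34.6 beside 23.3 and 17.5. Among the non-hair cells, the summed neuron markers were uneven, at 649.9, 1696 and 1516 in the controls and 632, 309.6 and 1191 after gentamicin. Values without control hair cell replicate 2 are given below for the hair cell calls, and values without single non-hair cell replicates for the gene called in non-hair cells.

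Of the 37 genes, 31 had at least 100 recovered reads over the 12 replicates and were tested. The other 6 were Cacna1f with 62 reads in all, Cacna1s with 65, Cacng1 with 50, Cacng3 with 42, Cacng6 with 40 and Scn10a with 37. Cacng6 had no read in any of the 6 hair cell replicates, which allows up to 3 reads in each, and 4–8 reads in each non-hair cell replicate. Cacna1s and Cacng1, subunits of the calcium channel of skeletal muscle, had at most 16 and 11 reads in any replicate. Cacna1s had 11, 16 and 11 reads in control hair cells, 4, 8 and 8 after gentamicin and 0, 2 and 1 in control non-hair cells. With no minimum of reads it met the criteria used below as lower in treated hair cells. In the annotation, 11 of the 37 genes share exon bases with another gene, in most cases on the opposite strand, 1433 bases in Cacnb4, 1309 in Cacna1s and at most 7.32% of the exons of each of the others. Whether reads were counted by strand is not given in the sources used here. The sodium channel pore genes on chromosome 2 (Scn1a, Scn3a, Scn7a and Scn9a) resemble each other in sequence, so their values are uncertain as far as shared reads were split between them.

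The control replicates showed which channels each population carries. Hair cells carried Cacna1d, the L-type pore of the ribbon synapse, together with Cacnb2, Cacna2d2 and the gamma genes Cacng5 and Cacng2. They also carried the beta gene Cacnb3, which was high in both populations. The sodium channel genes with the highest levels in hair cells were Scn11a, a pore known from pain-sensing neurons, and the beta gene Scn3b. Non-hair cells carried instead the T-type pores Cacna1g and Cacna1h, low-threshold channels that open near rest, and the alpha2delta gene Cacna2d1. By limma with Benjamini-Hochberg adjustment, 25 of the 31 genes differed between the control populations at an adjusted p under 0.05 and more than 2-fold, 9 higher and 16 lower in hair cells. Among all 16080 genes tested 36.1% met the same criteria, 13.7% as higher and 22.4% as lower in hair cells. Without control hair cell replicate 2 the count was again 25, 9 higher and 16 lower, where 5885 of all genes were called, 2220 higher and 3665 lower.

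**Figure D1:**
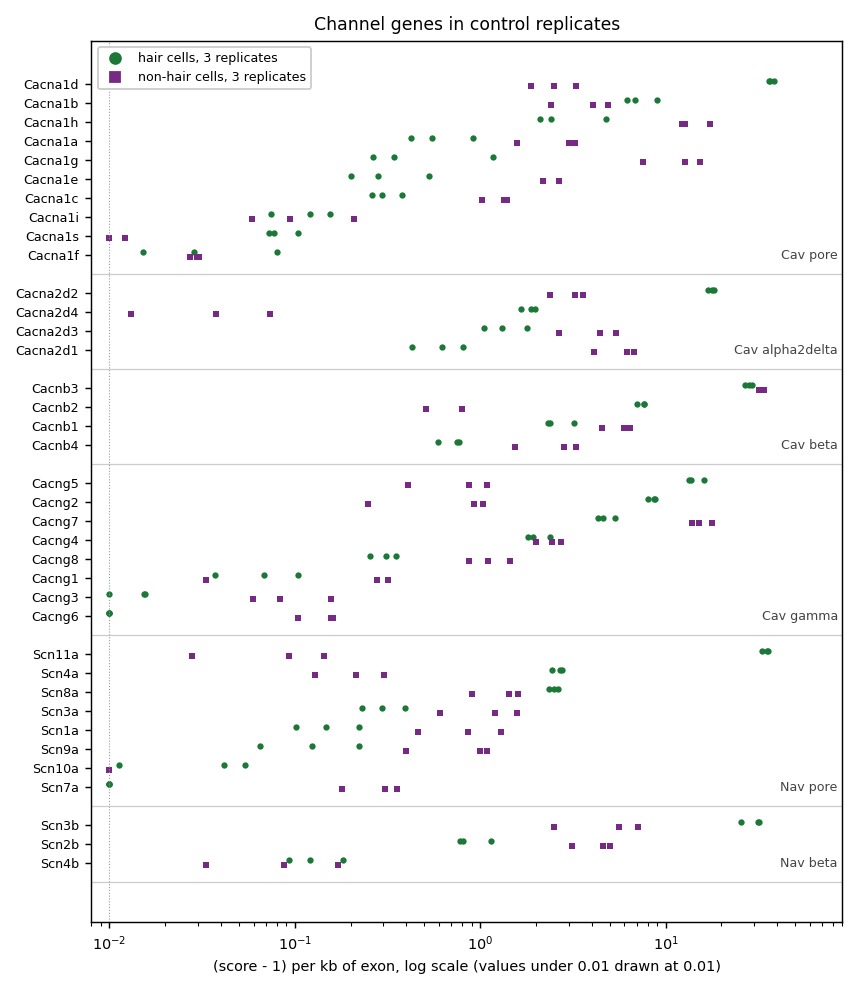
Level of each of the 37 channel genes per kilobase of exon in the 3 control hair cell replicates (circles) and the 3 control non-hair cell replicates (squares), on a log axis and grouped by role. Cacna1d, Scn11a and Scn3b sit farthest right among the hair cell points, at means of 37.1, 34.8 and 29.7, while Cacnb3 leads the non-hair cells at 32.9.

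Scn11a separated the populations most. Its scores were 214, 199 and 209.7 in control hair cells and 1.17, 1.55 and 1.85 in control non-hair cells, where they stand for 4, 14 and 22 reads. The groups lay far apart, with a mean 395 times as high in hair cells once the offset was taken off (log2 difference 7.11 ± 0.18 (SE), limma adjusted p = 2.58e-11, n = 3 replicates a group). Scn11a (chromosome 9, 119753759–119825456, mm10) lies beside Scn10a (119608456–119719322), also on the minus strand and a pore of pain-sensing neurons, which had at most 10 reads in any replicate.

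Cacna1d scored 485, 459.9 and 464 in control hair cells against 24.8, 42.7 and 32.6 in control non-hair cells. All 3 hair cell values lay above all 3 others, by 14.5 times between the means less the offset (log2 difference 3.85 ± 0.17, limma adjusted p = 2.88e-09). Cacng5, a TARP gene, scored 62.8, 52.2 and 53.7 against 2.57, 5.20 and 4.32, with a log2 difference of 3.86 ± 0.23 (adjusted p = 4.2e-08). For these 3 genes, each over 10 times as high in hair cells, the 250 bases upstream of an annotated start are printed from RefSeq (GRCm38.p6), 5′ to 3′ on the gene's strand. They were searched on both strands for CAGCTG, a form of the E-box bound by factors such as ATOH1 (the match is in capitals for Scn11a and Cacna1d), and for TGANTCA, the site of AP-1 factors such as FOS and JUN (in capitals for Cacng5). The windows are chr9:119825457-119825706 for Scn11a, chr14:30353487-30353736 for 1 of the starts of Cacna1d and chr11:107915056-107915305 for 1 of the starts of Cacng5, all on the minus strand. Only windows with a match are printed. Cacna2d4, Scn4a, Cacng2 and Cacnb2 were also over 10 times as high in hair cells, and their windows are not printed.
Scn11a: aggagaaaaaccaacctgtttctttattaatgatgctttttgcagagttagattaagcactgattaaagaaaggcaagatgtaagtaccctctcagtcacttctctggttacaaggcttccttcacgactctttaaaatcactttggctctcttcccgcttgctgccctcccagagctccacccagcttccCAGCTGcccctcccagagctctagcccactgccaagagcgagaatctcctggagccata
Cacna1d: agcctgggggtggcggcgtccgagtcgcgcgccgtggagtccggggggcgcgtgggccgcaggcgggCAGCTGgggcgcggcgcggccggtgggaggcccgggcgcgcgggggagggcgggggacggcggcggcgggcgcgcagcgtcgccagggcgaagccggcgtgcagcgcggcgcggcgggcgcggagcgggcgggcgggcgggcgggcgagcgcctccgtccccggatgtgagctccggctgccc
Cacng5: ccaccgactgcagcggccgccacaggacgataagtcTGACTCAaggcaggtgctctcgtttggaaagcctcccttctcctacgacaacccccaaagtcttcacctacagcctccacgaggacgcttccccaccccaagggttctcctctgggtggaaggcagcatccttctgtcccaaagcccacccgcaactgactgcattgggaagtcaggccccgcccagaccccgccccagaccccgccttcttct
Counted back from the start, the matches begin at -59 in Scn11a, -183 in Cacna1d and -214 in Cacng5. CAGCTG stood in 11 of the 39 upstream windows that RefSeq gives for 29 of the channel genes, and in 13.0% of all 32851 windows of this length. Among the channel genes with it were some low in hair cells, such as Cacnb4 and Scn7a. TGANTCA stood in 1 of the 39 windows and in 6.75% of all. A match only says that these letters are there.

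Of the 8 calcium channel pores tested, 1 was called higher in hair cells, Cacna1d, and 5 lower. Cacna1b, the N-type pore of presynaptic terminals, had a mean of 73.9 in hair cells and 38.5 in non-hair cells, and its log2 difference of 0.98 ± 0.48 did not pass the test (adjusted p = 0.0828). Cacna1g was lowest in hair cells relative to non-hair cells, with means of 7.04 and 121 (log2 difference -4.29 ± 0.45, adjusted p = 3.81e-06). Cacna1e, the R-type pore, differed by -2.75 ± 0.26, Cacna1h by -2.22 ± 0.26, Cacna1a, the P/Q-type pore, by -1.90 ± 0.35 and Cacna1c, the L-type pore of heart and smooth muscle, by -1.86 ± 0.20. Cacna1i, the remaining T-type pore, was low in both, with means of 2.15 and 2.19.

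The auxiliary calcium channel genes were divided between the populations. Of the alpha2delta genes, Cacna2d2 (means 142 and 25.5) and Cacna2d4 (18.4 and 1.39) were higher in hair cells, and Cacna2d1 (8.71 and 71.7) and Cacna2d3 (13.0 and 37.3) were lower. Cacnb2 was the beta gene called higher in hair cells than in non-hair cells, with a mean of 99.7 against 10.3 (log2 difference 3.30 ± 0.14). Cacnb3 was abundant in both, at 115, 119 and 108 in control hair cells and 137, 129 and 133 in control non-hair cells, a difference under the 2-fold criterion (-0.22 ± 0.08). Cacnb1 and Cacnb4 were lower in hair cells, by -1.04 ± 0.21 and -1.65 ± 0.43. The call for Cacnb1 held in 2 of the 6 fits that left out a control replicate, and its fold was close to 2. Of the gamma genes, Cacng2 (means 47.8 and 5.08), the TARP also called stargazin, was higher in hair cells beside Cacng5, and Cacng7 and Cacng8 were lower.

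Of the sodium channel pores, Scn11a and Scn4a were called higher in hair cells and Scn1a, Scn3a, Scn7a and Scn9a lower. Scn4a, the pore of skeletal muscle, had means of 19.6 and 2.51 (log2 difference 2.99 ± 0.23, adjusted p = 2.78e-07). Skeletal muscle markers were near the offset in all groups, with sums of 2.22–4.52 above it over 9 genes. Scn8a, a main pore of mature neurons, had means of 40.4 and 21.7, a difference under the 2-fold criterion (0.94 ± 0.22). Scn7a had 1, 0 and 0 reads in control hair cells and 32, 66 and 58 in control non-hair cells. Of the beta genes, Scn3b (means 163 and 28.7) was higher in hair cells and Scn2b (5.23 and 20.8) was lower.

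Per kilobase of exon, Cacna1d led the genes described in control hair cells with 38.3, 36.4 and 36.7 in the 3 replicates, followed by Scn11a with 35.9, 33.3 and 35.2 and Scn3b with 25.6, 31.9 and 31.7. The replicates of Cacna1d lay above those of Scn11a, and those of Scn11a above those of Scn3b, by small gaps. Cacnb3 came next at 28.2 ± 1.36 (SD, n = 3) and overlapped with Scn3b. In control non-hair cells Cacnb3 was highest, with 33.9, 32.0 and 32.9 and no overlap with the genes after it. Cacng7 had 17.8, 15.1 and 13.8, Cacna1h 12.3, 17.3 and 12.7 and Cacna1g 11.9 ± 3.91, and the replicates of these 3 overlapped. The order in hair cells depends on the exon length used. With the longest transcript in place of all exons Cacna1d remained highest at 48.5, but Cacnb3 at 41.3 and Scn3b at 39.1 then stood above Scn11a at 35.0. In non-hair cells Cacnb3 was at 48.3.

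After 3 h of gentamicin, the channel genes that passed the test in hair cells were lower. In hair cells 11 of the 31 genes met the study's criteria (p before adjustment below 0.01, change of more than 1.2-fold), and all 11 were lower. The largest fall was in the T-type pore Cacna1h, and the pores Cacna1a, Cacna1c, Cacna1e, Scn3a and Scn4a fell as well. The auxiliary genes that fell were Cacna2d1, Cacna2d2, Cacnb1, Cacng7 and Scn2b. Cacna1d and Scn11a, which had the highest levels per kilobase of merged exon in hair cells, did not meet these criteria. Scn11a met them as lower in some of the alternative fits given below. Over all genes tested, 27.5% passed the same criteria, 14.8% as lower and 12.7% as higher. The median log2 change was -0.67 over the 31 channel genes and -0.09 over all genes, and 25 of the 31 had a change below 0. In bulk samples fewer cells of a type and less RNA per cell cannot be told apart.

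**Figure D2:**
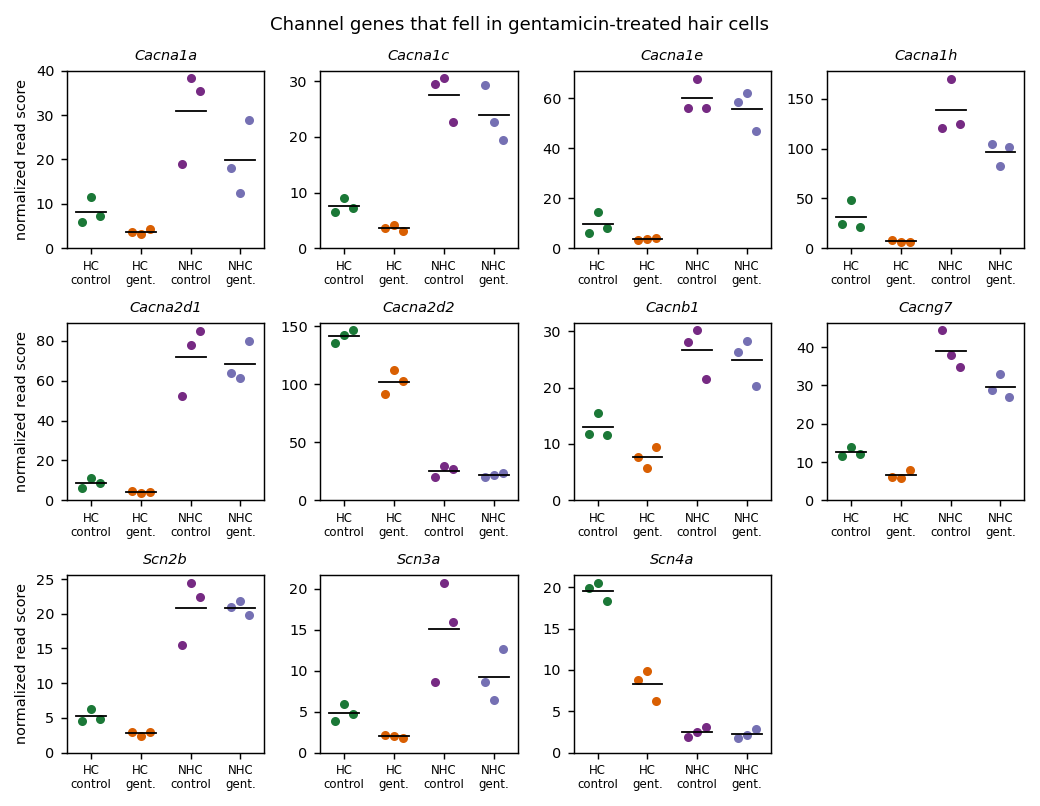
Normalized read score of the 11 channel genes that fell in gentamicin-treated hair cells, with 1 point per replicate and a line at the mean of each group of 3. In every panel the 3 gentamicin-treated hair cell points lie below the 3 control hair cell points, and HC and NHC mark hair cells and non-hair cells.

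Cacna1h scored 24.7, 47.9 and 21.5 in control hair cells and 8.67, 6.06 and 6.59 after gentamicin. All treated replicates were below all controls, and control replicate 2 was the highest. The log2 change was -2.07 ± 0.26 (SE; limma adjusted p = 0.000266). Cacna1e scored 6.10, 14.4 and 8.05 in controls and 3.06, 3.59 and 3.96 in treated hair cells, with control replicate 2 again the highest and no overlap (-1.34 ± 0.26, adjusted p = 0.00264). Cacna1c went from 6.52, 8.997 and 7.27 to 3.60, 4.18 and 3.00, also without overlap (-1.08 ± 0.20, adjusted p = 0.00195). Cacna1a, whose scores were 5.86, 11.5 and 7.31 before and 3.72, 3.13 and 4.31 after, changed by -1.10 ± 0.35 (adjusted p = 0.0331). Its call held in 1 of the 6 fits that left out a hair cell replicate, the one without control replicate 1.

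Other calcium channel pores did not pass. Cacna1d scored 485, 459.9 and 464 in controls and 399.6, 486 and 502 after gentamicin, and the groups overlapped. Its log2 change was -0.03 with a 95% interval from -0.40 to 0.34. Cacna1g changed by -1.07 ± 0.45 (limma adjusted p = 0.0871), Cacna1i by -0.67 ± 0.24 (adjusted p = 0.0503) and Cacna1b by -0.44 ± 0.48 (adjusted p = 0.508).

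Both called alpha2delta genes fell without overlap. Cacna2d2, the alpha2delta gene with the highest level in hair cells, scored 136, 143 and 147 in controls and 91.5, 112 and 103 after gentamicin (-0.48 ± 0.13, limma adjusted p = 0.019). It kept its call in 2 of the 6 fits that left out a hair cell replicate, those without control replicate 1 and without treated replicate 2, and lost it when reads were scaled by their total. Cacna2d1 scored 6.34, 11.1 and 8.70 in controls and 4.63, 3.76 and 4.24 in treated hair cells (-1.02 ± 0.22, adjusted p = 0.00533), and every such fit kept it, with -0.82 without control replicate 2, while voom weights lost it. Cacna2d4 changed by -0.45 ± 0.22 and Cacna2d3 by 0.04 ± 0.34, and neither passed.

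Of the beta and gamma genes, Cacnb1 and Cacng7 fell. Cacnb1 went from 11.8, 15.6 and 11.6 to 7.76, 5.73 and 9.45, with no overlap (-0.78 ± 0.21, limma adjusted p = 0.0158). Cacng7, a TARP gene, went from 11.6, 14.0 and 12.2 to 6.07, 5.81 and 7.99 (-0.94 ± 0.15, adjusted p = 0.000848), and its groups were clearly apart. Cacng5 moved upward without passing the criteria: its scores were 62.8, 52.2 and 53.7 in controls and 81.3, 95.3 and 74.2 after gentamicin, a log2 change of 0.57 ± 0.23 (limma adjusted p = 0.0812). Every treated replicate of Cacng5 lay above every control, as it did for Cacnb2 (0.18 ± 0.14). Among all genes tested 21.7% had all treated hair cell replicates above all controls. Below all controls were 18 of the 31 channel genes and 33.1% of all genes.

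Of the sodium channel pores, Scn4a and Scn3a fell. Scn4a scored 19.9, 20.5 and 18.3 in controls and 8.77, 9.83 and 6.28 after gentamicin, a gap wider than the spread within either group (-1.26 ± 0.23, limma adjusted p = 0.00193). Scn3a scored 3.85, 5.93 and 4.66 in controls and 2.15, 1.98 and 1.80 in treated hair cells (-1.27 ± 0.32, adjusted p = 0.0112), without overlap.

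The sodium channel pore with the highest level in hair cells, Scn11a, scored 214, 199 and 209.7 in controls and 169, 152 and 122 after gentamicin. All treated values were lower, and the log2 change of -0.50 ± 0.18 missed the study's criterion while its limma adjusted p was 0.0466. At an adjusted p under 0.05 with no fold criterion, 14 of the 31 channel genes and 33.2% of all genes passed in hair cells. Scn8a changed by 0.18 with a 95% interval from -0.30 to 0.66. Of the beta genes Scn2b fell, from 4.61, 6.31 and 4.78 to 3.00, 2.38 and 2.92, with no overlap (-0.91 ± 0.19, adjusted p = 0.00382). Scn3b, which modulates sodium currents in neurons, scored 141, 175 and 174 in controls and 92.3, 106 and 102 after gentamicin, a change of -0.70 ± 0.39 that did not pass (adjusted p = 0.190) although its groups did not overlap. This SE rests on the spread in all 4 groups, and Scn3b was uneven in non-hair cells, with 14.7, 39.8 and 31.6 in controls. Scn3b was called as lower when only the hair cell groups were fitted.

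**Figure D3:**
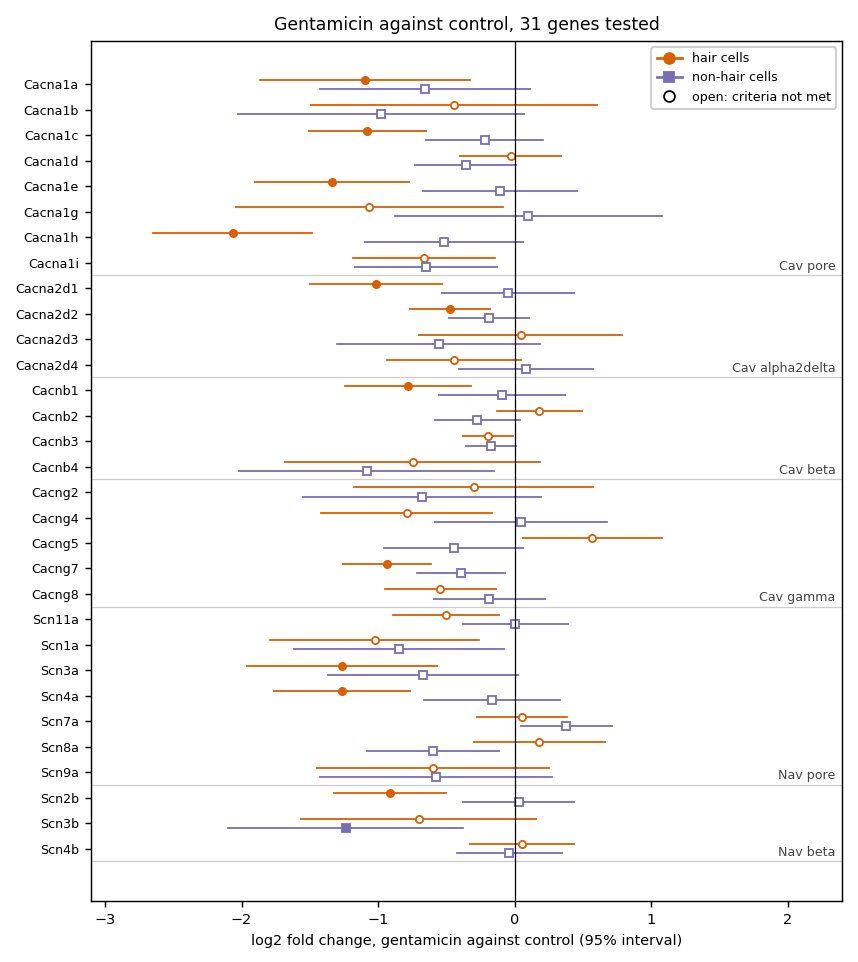
Log2 fold change of gentamicin against control for the 31 channel genes tested, in hair cells (circles) and non-hair cells (squares), with 95% intervals. Filled symbols met the study's criteria (p before adjustment below 0.01, change of more than 1.2-fold): 11 in hair cells, all to the left of 0, and Scn3b in non-hair cells.

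Of the 11 calls in hair cells, 7 held in each of the 6 fits that left out a hair cell replicate: Cacna1c, Cacna1e, Cacna1h, Cacna2d1, Cacng7, Scn2b and Scn4a. Without control hair cell replicate 2, 7 channel genes were called, and 3288 of the 16080 genes tested. The log2 change of Cacna1h was then -1.71 and that of Cacna1e -0.99, both still called, while Cacna1a (-0.83), Cacnb1 (-0.64) and Scn3a (-1.11) no longer passed. Cacnb1 was also lost without treated replicate 2. When only the hair cell groups were fitted, 18 were called, 17 lower and 1 higher, which was Cacng5. Scn11a and Scn3b were among the 17. Over all genes, 5061 of 16080 were called in that fit. With voom weights, which weight each value by its expected precision, 11 were called, 10 lower, again with Scn11a, and Cacng5 higher. Among these were 7 of the 11 reported calls, without Cacna1a, Cacna2d1, Cacnb1 and Scn3a. Over all genes, 4136 of 16080 were called with voom weights. Without control non-hair cell replicate 1, Cacng5 was called as higher and Scn11a as lower. Scn11a was also called as lower without control non-hair cell replicate 3.

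Markers of other cells were followed in the same hair cell groups, where 14.8% of all genes passed as lower and 12.7% as higher. In hair cells the mesenchyme markers summed to 249, 533 and 291 in controls and 174, 170.1 and 213 after gentamicin, and 3 of 8 passed as lower. The endothelial list stood at 5.91%, 8.78% and 4.43% of the control non-hair cell mean in control hair cells and at 2.43%, 4.26% and 2.71% after gentamicin, and 1 of 8 passed as lower. The supporting cell markers summed to 1944, 1912 and 2291 in control hair cells and 1318, 879 and 1611 after gentamicin. Of the mural list 3 of 7 tested markers passed as lower, of the supporting cell list 5 of 10, of the glia list 4 of 10 and of the neuron list 1 of 12, and none of these lists had a marker pass as higher. No marker of these lists was without reads in any hair cell group. Over the 10 hair cell markers, 1 passed as lower and the sums were 11556–11995 in controls and 9691–10835 after gentamicin. Of the 8 macrophage markers 1, Cd68, passed as higher, and their sums were 5.12–5.95 in controls and 15.97–21.8 after gentamicin. Without Cd68 the other 7 summed to 3.78–4.56 and 4.41–6.07.

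On the same scale, Cacna1h in hair cells was at 17.2%, 34.1% and 14.9% of the control non-hair cell mean in controls and at 5.58%, 3.68% and 4.06% after gentamicin. Elavl3, an RNA-binding protein of neurons picked here after its values were seen, was at 13.2%, 31.8% and 18.5% in controls and at 6.30%, 6.01% and 5.60% after gentamicin. The neuron list as a whole stood at 88.6–106% in controls and 81.7–92.9% after gentamicin. Its largest member was the neurofilament gene Nefm, whose mean score was 699 in controls and 709 in treated hair cells, and the other 11 neuron markers summed to 509–615 and 399.99–437. The median log2 change of the 12 was -0.96, with Elavl3 at -1.51, Rbfox3 at -0.12 and Snap25 at -0.05. The part that reads from other cells had in the falls of genes with high levels in non-hair cells, such as Cacna1h, Cacna1e and Cacna2d1, was not tested. Scn4a scored 6.28–9.83 in treated hair cells and 1.91–3.12 in control non-hair cells. Cacna2d2 had means of 142 and 102 in control and treated hair cells and of 25.5 in control non-hair cells.

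**Figure D4:**
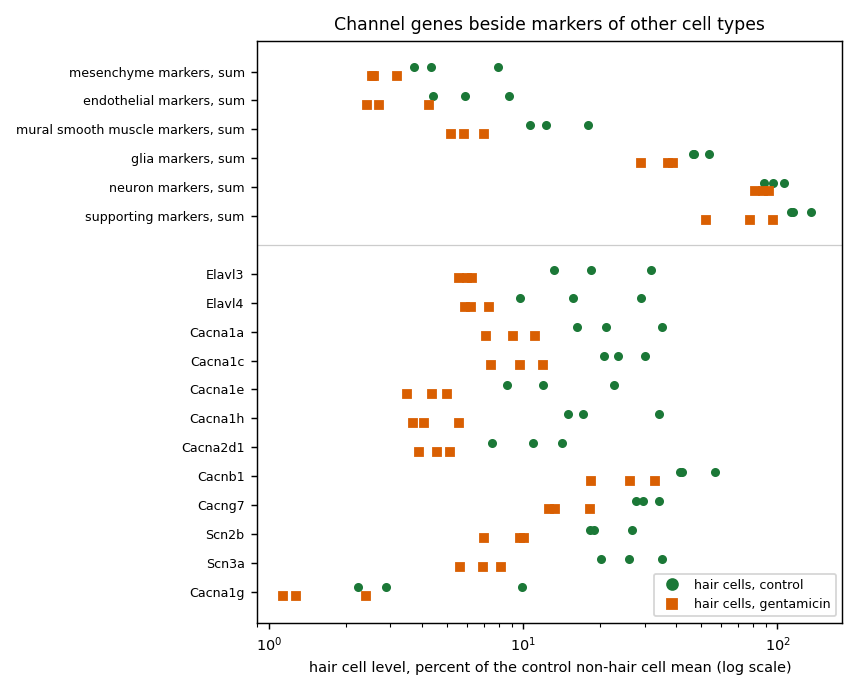
Hair cell levels as percent of the control non-hair cell mean, on a log axis, for summed marker lists of other cell types (top), for the neuron genes Elavl3 and Elavl4, for the fallen channel genes whose level is higher in non-hair cells and for Cacna1g, with circles for the 3 control and squares for the 3 gentamicin-treated hair cell replicates. Elavl3 and Elavl4 are 2 of the 12 neuron markers, picked after their values were seen, and the sum of the whole neuron list is drawn at the top. Cacna1h drops from 14.9–34.1% to 3.68–5.58% while the mesenchyme markers go from 3.72–7.96% to 2.54–3.19%.

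In non-hair cells few channel genes met the criteria after gentamicin, as was so for genes as a whole. Of the 31 genes 1 passed the study's criteria, Scn3b as lower, where 5.45% of all genes passed, 2.26% as lower and 3.18% as higher. It scored 14.7, 39.8 and 31.6 in controls and 11.3, 6.34 and 19.7 after gentamicin. The groups overlapped, since control replicate 1 lay below treated replicate 3 (-1.24 ± 0.39, limma adjusted p = 0.158). The call held in 2 of the 6 fits that left out a non-hair cell replicate, with -1.66 without control replicate 1 and -1.65 without treated replicate 3. It was lost without control replicate 2 (-0.94) or 3 (-1.11) and without treated replicate 1 (-1.24) or 2 (-0.83). At an adjusted p under 0.05 by limma 0 of the 31 passed, against 55 of the 16080 genes tested. With voom weights Scn3b no longer passed the study's criteria and 1 other gene, Cacng7, did. The median log2 change was -0.27 over the channel genes and -0.01 over all genes, and 25 of the 31 changes were below 0. All 3 treated values lay below all 3 controls for Cacna1h, Cacna1i, Cacnb3 and Cacng7 (4 of 31, against 7.68% of all genes) and above them for 0 of 31, against 10.1% of all genes. Without control replicate 1, 10 channel genes and 761 of the 16080 genes tested were called as lower. Without treated replicate 3, 6 channel genes and 840 of all genes were. Those replicates hold respectively little and much of the neuron markers for their group, with sums of 649.9 and 1191, and the part of neuron content in these counts was not tested.

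The 2 responses were then compared directly. The hair cell and non-hair cell changes differed at an adjusted p under 0.05 by limma for 4 of the 31 genes, with 13.4% of all genes passing, 6.57% with a lower and 6.85% with a higher change in hair cells. For all 4, Cacna1h, Cacna1e, Scn2b and Scn4a, the change in hair cells was the lower one. This single direction depended on the setting. Without control non-hair cell replicate 1, Cacnb2, Cacng5 and Scn8a were called with a higher change in hair cells and Cacna1h with a lower one. Cacng5 and Scn8a were called with a higher change without treated non-hair cell replicate 3, and Cacng5 with scaling by total reads.

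For Cacna1h the response in hair cells (-2.07) was lower than that in non-hair cells (-0.52 ± 0.26) by 1.55, with an interaction of -1.55 ± 0.37 (adjusted p = 0.0215). Its non-hair cell scores were 121, 170.0 and 125 in controls and 104, 82.5 and 102 after gentamicin. Leaving out 1 replicate at a time kept this call in 10 of 12 fits, the exceptions being treated hair cell replicate 2 and treated non-hair cell replicate 1. Cacna1e scored 56.1, 67.9 and 56.3 in control and 58.5, 62.2 and 46.8 in treated non-hair cells, which overlapped, and its interaction was -1.23 ± 0.36 (adjusted p = 0.0459). For Scn2b the non-hair cell scores were 15.5, 24.5 and 22.5 in controls and 20.9, 21.9 and 19.8 after gentamicin, and the interaction was -0.94 ± 0.26 (adjusted p = 0.0385). Scn4a was close to the offset in non-hair cells, at 1.91, 2.51 and 3.12 before and 1.77, 2.12 and 2.83 after, with an interaction of -1.10 ± 0.32 (adjusted p = 0.0449). Fits leaving out 1 replicate kept the call of Cacna1e 2 times of 12, that of Scn2b 3 times and that of Scn4a 2 times. The call of Scn4a was also lost under the replicate block, with scaling by total reads, with an offset of 0.1, with no minimum of reads and with voom weights. That of Cacna1e was lost with scaling by total reads and with no minimum of reads, and that of Scn2b with no minimum and with voom weights.

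Several other genes came near. Cacng5 had the interaction farthest in the other direction, 1.02 ± 0.33 (adjusted p = 0.0635), with its non-hair cell scores at 2.57, 5.20 and 4.32 in controls and 2.82, 2.36 and 3.43 after gentamicin. Cacna2d1 (-0.97 ± 0.31) and Cacna1c (-0.86 ± 0.28) had adjusted p = 0.063 and 0.0615. For Scn3b, the gene called in non-hair cells, the responses were not shown to differ (0.53 ± 0.56, adjusted p = 0.556).

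The hair cell response and the comparison of populations use the same control hair cells, so their values are set side by side only. Cacna1h was lower in control hair cells than in control non-hair cells by 2.22 on the log2 scale and changed by -2.07 with gentamicin. For Scn4a the difference between control populations was 2.99 and the change with gentamicin -1.26. For Cacna1d these values were 3.85 and -0.03, for Cacng5 3.86 and 0.57, and for Scn11a 7.11 and -0.50.

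Genes that bind or regulate the channels were listed by function, 48 in all, of which 46 were in the tables and 43 were tested. In hair cells 7 of the 43 passed the study's criteria, 3 as higher and 4 as lower, where 12.7% and 14.8% of all genes did, and their median log2 change was -0.11. Rrad, which encodes a small GTPase of the RGK family that blocks calcium channels through the beta subunit, was higher, at 1.22, 1.13 and 1.14 in controls and 1.95, 2.09 and 2.28 after gentamicin. The groups did not overlap, but these scores lie close to the offset of 1 (0.86 ± 0.19, limma adjusted p = 0.00620). Rem2, another RGK gene with more reads, went from 14.9, 19.2 and 16.9 to 28.5, 37.7 and 25.7 and missed the criterion (0.84 ± 0.28, limma adjusted p = 0.0388). Gem and Rem1 did not pass. Camk2g, a CaM kinase II gene, was higher, at 125, 127 and 119 against 159, 189.5 and 146 (0.41 ± 0.10, adjusted p = 0.0108), and Catsper2, of the sperm calcium channel complex, rose from 10.2, 8.78 and 10.3 to 15.3, 15.9 and 11.8 (0.55 ± 0.18).

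**Figure D5:**
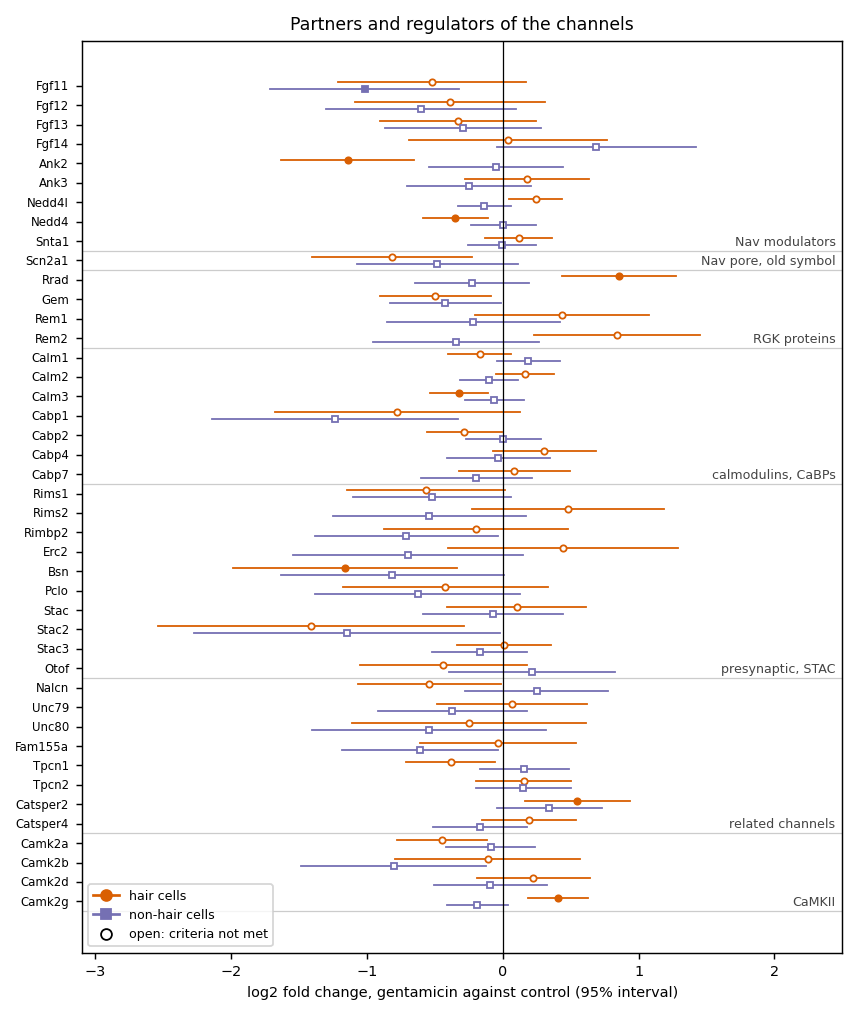
Log2 fold change of gentamicin against control for the 43 tested partners and regulators of the channels, in hair cells (circles) and non-hair cells (squares), with 95% intervals and filled symbols for genes that passed the criteria. In hair cells Rrad, Camk2g and Catsper2 lie to the right of 0, and Ank2, Nedd4, Calm3 and Bsn to the left.

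Ank2, the ankyrin that anchors channels and exchangers in the membrane, fell from 18.4, 32.2 and 19.3 to 10.8, 7.84 and 12.6 in hair cells (-1.14 ± 0.22, limma adjusted p = 0.00299), with control replicate 2 the highest, and by 0.89 on the log2 scale without that replicate, still called. Bsn, the presynaptic scaffold bassoon that holds ribbons and calcium channels at the active zone, fell from 105, 94.5 and 92.9 to 39.0, 40.3 and 52.1 (-1.16 ± 0.38, adjusted p = 0.0343). Its treated values did not come near the controls. Of the 7 calls, those of Ank2, Camk2g and Rrad held in each of the 6 fits that left out a hair cell replicate, that of Catsper2 held in 1, and those of Bsn, Nedd4 and Calm3 held in 0. Nedd4, a ubiquitin ligase, and Calm3, a calmodulin gene, fell less, by 0.35 and 0.33 on the log2 scale. Other calcium channel partners of the ribbon synapse, among them Rims2, Rimbp2, Cabp2 and Otof, did not pass. In non-hair cells Fgf11, of the FGF homologous factors that bind sodium channels, passed as lower (-1.02 ± 0.32), 1 of the 43 where 5.45% of all genes passed. The responses of Rrad (1.09 ± 0.27), Camk2g (0.60 ± 0.14) and Ank2 (-1.09 ± 0.32) differed between the populations by limma, with adjusted p = 0.0245, 0.0215 and 0.0432. Of the 43 partners these are 2 with a higher and 1 with a lower change in hair cells, where 6.85% and 6.57% of all genes passed. Scn2a1, the sodium channel pore outside the naming rule, changed by -0.82 ± 0.27 in hair cells (adjusted p = 0.0373) and by -0.48 ± 0.27 in non-hair cells, and passed in neither.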

How the data were processed

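RNA of sorted cells was sequenced as 50 bp single-end reads from poly(A) libraries. Per the labels and the methods, the authors trimmed the reads, aligned them with TopHat 2 in PartekFlow to the mm10 assembly and deposited 1 score per gene and replicate. The methods name the unit RPKM, but the deposited score holds no division by gene length: the score less 1 came in steps, the same for every gene of a replicate, that gave whole reads for 74.2–75.95% of low values (up to 50 reads, tolerance 0.02). Since the rest were not whole, no count model was used, and the "recovered reads" are approximate. The counting tool and its treatment of shared reads are not given in the sources used here.

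limma 3.58.1 (R 4.3.3) was run on log2 of the scores in a single model of the 4 groups, which then share 1 estimate of the spread, with trended empirical Bayes variances, over the 16080 genes with at least 100 recovered reads in the 12 replicates. Fold changes are on the log2(score) scale, which holds the offset of 1 and understates changes of low genes. Adjusted p-values are Benjamini-Hochberg values over all genes tested. After gentamicin a gene passed at p under 0.01 with a fold change above 1.2, the criteria of the methods. An adjusted p under 0.05 was required of the difference between responses, and the same with a fold above 2 of the difference between populations. Exon lengths and positions come from GENCODE M21 on GRCm38 (mm10), which held all 37 genes described. The naming rule matches 39 genes, of which 2 are not reported here, and counts over the channel genes leave them out. Counting error sets the precision of genes with few reads, and p-values measure the spread between the replicates, which the authors describe as biological.

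Per-replicate values are given for the channel genes called after gentamicin or in the interaction and for the 3 highest per kilobase, among the genes described, in each control population, and for others mainly means, changes or counts. Values are also given for partners that passed in hair cells. Cacng5, Rem2, Elavl3 and Elavl4 were chosen after their values were seen. The channel genes and all lists were chosen with earlier results of these data known. The replicate numbers were checked for pairing by the correlation of deviations from the group means. Control hair and non-hair cells of the same number deviated together (r = 0.216, 0.316 and 0.200, and -0.270 to -0.055 for different numbers). For treated hair and non-hair cells of the same number r was 0.377, -0.0386 and -0.018. No label gives a pairing, so whether the numbers pair any samples is not known. Between control and treated hair cells (0.037–0.052) and non-hair cells (-0.232 to 0.683) the same numbers gave no clear sign of pairing. Alternatives were other scalings, offsets, read minima, voom weights, a replicate block, fits of the compared groups alone, other thresholds and leaving out each replicate.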

Additional observations from a re-analysis of the deposited data

Results flagged for a closer look

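The response to gentamicin differed between hair cells and non-hair cells, by the interaction term of the limma fit, for 4 channel genes. The difference in log2 change, hair cells less non-hair cells, was -1.55 for Cacna1h, -1.23 for Cacna1e, -1.10 for Scn4a and -0.94 for Scn2b. The difference for Scn4a no longer passed under the replicate block, with scaling by total reads, with an offset of 0.1, with no minimum of reads and with voom weights. That for Cacna1e was lost with scaling by total reads and with no minimum of reads, and that for Scn2b with no minimum and with voom weights. Fits leaving out 1 replicate kept the call of Cacna1h in 10 of 12, of Scn2b in 3 and of Cacna1e and Scn4a in 2 each. For each of the 4 genes all 3 treated hair cell replicates lay below all 3 controls. Each group holds 3 replicates, too few to test single replicates for standing apart.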

How the results depend on the processing

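No called channel gene changed direction under the alternatives run. Over all alternatives, 78 recomputed counts and levels stayed within 1.5 times or 1 SD of the reported value and 29 moved further, while 732 values of single genes kept their side of the threshold and 82 fell below it. In hair cells the count of 11 became 18 when only those groups were fitted, where 5061 of the 16080 genes were called. Leaving out 1 replicate gave 7–15. The 7 came without control replicate 2, where 3288 of all genes were called, and the 15 without control non-hair cell replicate 1, where 4584 were. In non-hair cells the count of 1 became 0 with scaling by total reads and with no minimum of reads, where 916 of 16080 and 910 of 20466 genes were called. It was also 0 with only those groups fitted and at an adjusted p under 0.05, where 383 and 55 of all genes were called. Leaving out 1 replicate gave 0–10. The 10 came without control replicate 1, where 761 of all genes were lower. Without treated replicate 3 there were 6, where 840 of all genes were lower. Without control replicate 2 a single gene was called, as higher, where 254 of all genes were called as higher. For the difference between the responses the count of 4 became 1 with no minimum of reads (Cacna1h) and 2 with voom weights. Over all genes these fits called 2069 of 20466 and 1851 of 16080, against 2158 in the reported fit. Leaving out 1 replicate gave 0–6. There were 0 to 2 without control replicate 2 or 3 or treated replicate 1 or 2 of the hair cells. The same held without control replicate 2 or 3 or treated replicate 1 or 2 of the non-hair cells. In those fits 1162–1724 of all genes were called. The 6 came without treated non-hair cell replicate 3, where 2291 of all genes were called. Without control non-hair cell replicate 1, 3 of the 4 calls had a higher change in hair cells, as had 997 of the 2005 calls over all genes. The cause was not tested. Between the control populations leaving out 1 replicate gave 23–26, and 5725–5885 over all genes. Scaling by total reads turned the split over all genes in hair cells from 2037 higher and 2381 lower to 2774 and 1591, and left 9 channel genes lower and 0 higher. With the replicate block the counts were 13 in hair cells and 1 in non-hair cells, where 4618 and 878 of all genes were called. The count was 4 for the difference between responses, with Scn4a no longer among them, and 25 between the control populations, where the block changed no call of a channel gene. Over all genes 2306 and 5805 were called in these 2 comparisons. Per kilobase of the longest transcript the levels were 48.5 for Cacna1d and 39.1 for Scn3b in hair cells and 48.3 for Cacnb3 in non-hair cells, and Scn11a went from rank 2 to rank 4 in hair cells.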
